A study of Ficus obtusifolia with 4 samples.

Results

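Ribosomal protein transcripts of Ficus obtusifolia flowers were taken from the deposited table by description and level. A transcript was included if its description named a 60S, 40S or acidic ribosomal protein, or a ribosomal protein in general, with no mention of mitochondria, chloroplasts, 30S, 50S or a kinase. It also needed an RPKM (reads per kilobase of transcript, scaled to the mapped reads of the library) above 20 in at least 1 of the 2 receptive libraries and at least 10 reads in each of them. The rule gave 164 of the 54550 transcripts. A description of this kind was given for 329 transcripts, of which 165 fell below the level. In all, 9528 transcripts of any description passed the same level filter, and these are the transcripts tested below. The members were thus chosen by their RPKM and reads in the receptive libraries, and the comparison of receptive gall with receptive seed flowers is a description. Only 1 of the receptive libraries was above an RPKM of 20 in 24 members, the seed library in 19 and the gall library in 5, and for these the filter itself fixed which was higher. The members nearest to the minimum had a highest receptive RPKM of 20.8 (Locus 4371), 21.4 (Locus 35920) and 22.1 (Locus 22856). The nearest transcripts left out had 18.6 (Locus 10443), 17.6 (Locus 12118) and 17.5 (Locus 7646).

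Gall flowers line the lumen of the syconium, the enclosed inflorescence of a fig, and receive the eggs of pollinating wasps, whereas seed flowers lie against its wall. Receptive gall flowers and receptive seed flowers were collected from bagged syconia before any wasp had entered. Pollinated gall flowers and pollinated seed flowers were collected 24 hours after a single foundress (Pegoscapus hoffmeyerii) had been introduced into each syconium of the same tree. Flowers were assigned to a type by position alone, and flowers from several syconia were pooled, so that each of the 4 flower types is 1 library without replicates. All differences below are therefore between 2 libraries and have no replicate check. Pollinated gall flowers may also hold wasp eggs. Names of genes come from database matches to proteins of other organisms.

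The cytosolic ribosome of plants is built from a large (60S) and a small (40S) subunit, each an assembly of ribosomal RNA with many proteins. In plants most of these proteins are encoded by several gene copies, and their transcripts are abundant in dividing and growing tissue such as young flowers. Acidic proteins form the stalk of the large subunit, which binds elongation factors. Protein L40 of the large subunit and S27a of the small subunit are made as fusions with ubiquitin, the protein tag that is also used in protein breakdown. Chloroplasts and mitochondria have ribosomes of their own.

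By description, the 164 transcripts comprised 74 of the 60S subunit, 48 of the 40S subunit, 5 of the acidic stalk, 10 with ubiquitin, 26 with no subunit named and 1 export factor of the large subunit (Locus 22667). The GO term for a structural constituent of the ribosome was listed for 127 of them (77.4%, against 2.06% of the transcripts tested), and the term for translation for 121. A cytosolic term was listed for 60, a plastid or mitochondrial term for 45, and both for 30. Judged by description, the label of cytosolic holds best for the 127 transcripts of the 60S, 40S and stalk, but the GO counts were not split by class. Among the 26 with no subunit named, Locus 7570 was described as a plastid ribosomal protein and Locus 4371 as a mitochondrial-type protein whose spelling escaped the rule. Of the 127, 111 named their family, and 60 families were present, 36 of the large and 24 of the small subunit. No member was described with a hymenopteran genus. Members ran from 114 to 4128 bp, with a median of 1051.5 bp against 1499.5 bp for all transcripts tested. The 10 ubiquitin transcripts had a median length of 131.5 bp, so most were fragments.

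Libraries held 11584069 mapped reads (receptive seed) to 58969477 (pollinated gall), and reads that matched several transcripts made up 1.61% to 2.27%. Every member had at least 15 reads in each receptive library and at least 107 in each pollinated library. Intervals given below are exact conditional binomial 95% intervals of the ratio of 2 read rates, or exact binomial intervals of a share. They cover counting error only and are narrower than they should be if each read of a pair counted. Transcripts described as floral organ identity genes had reads in every library (13 of 13, summed RPKM 955 (receptive gall), 448 (receptive seed), 834 (pollinated gall) and 908 (pollinated seed)). Transcripts of the ovule list had reads in every library as well (4 of 4, with 16.9, 48.3, 19.6 and 58.8 in the same order), and so did the pollen list (15 of 15, 941 to 1024). The part of these differences between libraries in the results below was not tested, and fewer cells of a type cannot be told apart from less RNA per cell in pooled tissue.

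Ribosomal protein transcripts took the smallest share of the library in receptive gall flowers and the largest in receptive seed flowers. Of the mapped reads they held 1.53% in receptive gall flowers and 2.74% in receptive seed flowers (95% interval 2.73% to 2.75%), and after pollination 1.93% in the gall and 2.38% in the seed library. The 60S, 40S and stalk transcripts held 1.32%, 2.5%, 1.70% and 2.16% in the same order. Transcripts with ubiquitin went the other way, with 0.100% (receptive gall), 0.0583% (receptive seed), 0.0976% (pollinated gall) and 0.0611% (pollinated seed). The median RPKM of the 164 transcripts was 85.9 (receptive gall), 146 (receptive seed), 113 (pollinated gall) and 137 (pollinated seed). As a share of the summed RPKM, pollinated seed flowers (3.08%) lay above receptive seed flowers (2.82%), so the order of the seed libraries depends on the total used.

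**Figure D1:**
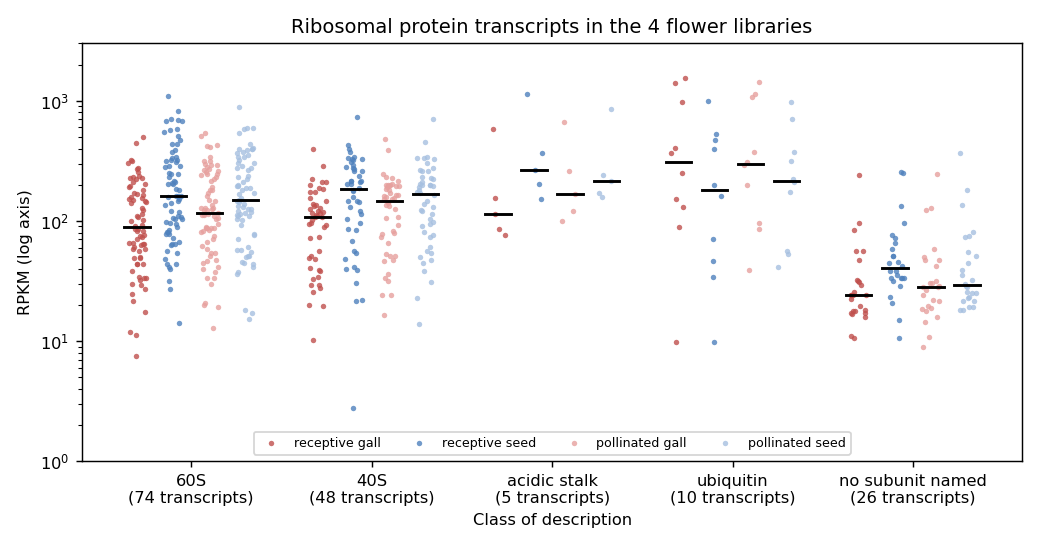
RPKM (log axis) of 163 ribosomal protein transcripts in the 4 flower libraries, by class of description (the export factor is not drawn). Each point is 1 transcript and each black line the median of a class, and the medians of the 60S, 40S and stalk classes are lowest in receptive gall flowers while the ubiquitin median is highest there.

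Levels differed more between members than between libraries. The most abundant transcript of the stalk, Locus 21144, had an RPKM of 576 (receptive gall), 1131 (receptive seed), 661 (pollinated gall) and 846 (pollinated seed). L23 (Locus 32500), a protein of the large subunit, had 494, 1088, 509.6 and 889 in the same order. S15a (Locus 18024), of the small subunit, had 394, 737, 476 and 711. In all 3 transcripts both gall libraries lay below both seed libraries and receptive seed flowers were highest. The same order held for L13-1 (Locus 22988), with 323, 585, 417 and 538, and for L7-4 (Locus 24878), with 316, 675, 409 and 576. In 2 further abundant transcripts, the 178 bp L27 (Locus 54930) and the 166 bp Locus 28062, the gall libraries had an RPKM of 306 to 541 and the seed libraries of 591 to 817.

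Receptive gall flowers had the lowest RPKM of the 4 libraries for 130 of the 164 transcripts (79.3%), against 33.5% of all transcripts tested. Receptive seed flowers were highest for 98 (59.8%, against 42.7%) and pollinated seed flowers for 50. Of the 127 transcripts of the 60S, 40S and stalk, 109 were lowest in receptive gall flowers and none was highest there.

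In receptive flowers, 147 of the 164 transcripts had a lower RPKM in gall than in seed flowers (57.1% of all transcripts tested did). The median log2 ratio was -0.90, a 1.86-fold lower level, while the median over all tested transcripts was -0.20. A ratio of at least 2 was taken as a call, with no test. By this rule 70 members were lower in receptive gall flowers (42.7%), against 23.4% of all transcripts tested, and 9 were higher (5.49%), against 17.6%. Together these were 79 members, against 41.1% of all transcripts tested in either direction. The median log2 ratio was -0.99 for the 60S, -0.75 for the 40S, -1.21 for the stalk, -0.86 for the transcripts with no subunit named and 0.90 for those with ubiquitin. Scaling by TMM or by the median ratio of abundant transcripts raised all log2 ratios of this pair by 0.23 or 0.22, so that the median over all tested transcripts became 0.02 or 0.01. The members then had a median of -0.67 or -0.68, with 44 lower and 12 higher by a factor of at least 2 under either scaling (with TMM, 17.5% and 22.0% of all transcripts tested). The 140 members above the RPKM minimum in both receptive libraries had a median of -0.86, with 58 lower and 5 higher by that factor.

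Among the other transcripts, the receptive gall to seed ratio was higher the longer the transcript, from 300 bp upwards. The other tested transcripts had a median log2 ratio of -0.97 at 300 to 500 bp, -0.42 at 1000 to 1500 bp, -0.20 at 1500 to 2000 bp and 0.23 from 2000 bp. Ribosomal protein transcripts showed no such trend. Their medians in the same bins were -0.70 (18 transcripts), -1.07 (48), -0.98 (29) and -0.77 (10). At 500 to 750 bp the members (-0.53, 19 transcripts) also lay above the others (-0.87), and at 750 to 1000 bp they lay slightly below (-0.93, 16 transcripts, against -0.79). The median of the members thus lay below that of other transcripts of the same length from 750 bp upwards, but not at 300 to 750 bp or under 200 bp (-0.31, 21 transcripts, against -0.65), and only 3 members had 200 to 300 bp (-1.40, against -0.58). With the median of the other transcripts in each length bin subtracted, the median of the members was -0.37, and by a factor of at least 2, 33 were lower (20.1%, against 12.6% of all transcripts tested) and 14 higher (8.54%, against 20.9%).

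**Figure D2:**
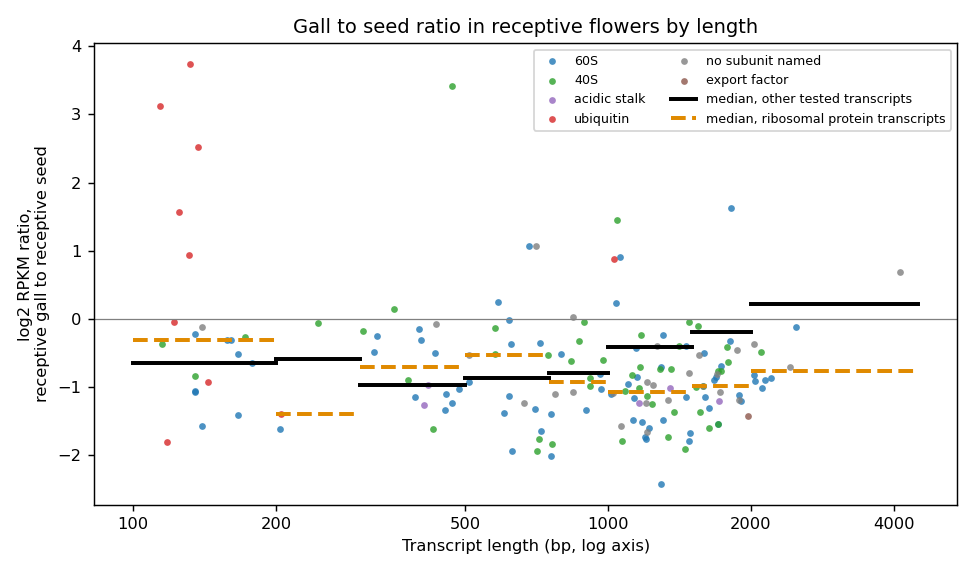
log2 ratio of RPKM between receptive gall and receptive seed flowers (gall over seed, vertical) against transcript length in bp (log axis) for the 164 ribosomal protein transcripts, coloured by class, with the median of members (dashed) and of all other tested transcripts (solid) in 8 length bins. The solid line climbs from -0.97 at 300 to 500 bp to 0.23 from 2000 bp, and the dashed line stays between -0.53 and -1.40 from 200 bp upwards.

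Summed over the transcripts of each family, 59 of 60 families had a lower RPKM in receptive gall than in receptive seed flowers, and 32 of them by a factor of at least 2. L3 was the exception, and it rests on 1 transcript that passed the RPKM minimum in receptive gall flowers only. The median log2 ratio of the family sums was -1.04. Of all single transcripts tested, 57.1% were lower and 23.4% by a factor of at least 2. Of the 127 single transcripts of the 60S, 40S and stalk, 119 were lower and 57 by that factor. With the length bin medians subtracted these were 88 and 29. With TMM scaling or the median ratio 56 families were lower, 19 of them by a factor of at least 2, and L5, L17 and S3 joined L3 on the higher side. Of the 33 families with more than 1 transcript, the highest ratio of a transcript was at the median 1.76 times the lowest ratio, and 6 families had transcripts on both sides of a ratio of 1.

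**Figure D3:**
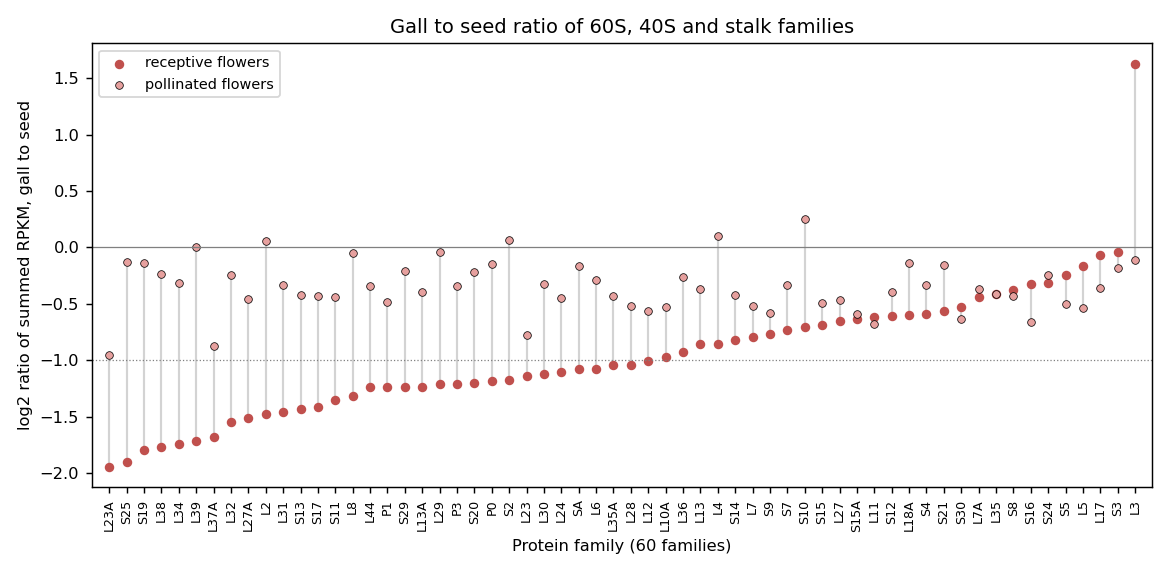
log2 ratio of summed RPKM, gall to seed flowers, for 60 families of the 60S, 40S and stalk in receptive (dark) and pollinated flowers (light), ordered by the receptive value, with no change (solid line) and a ratio of 1 to 2 (dotted line). In receptive flowers 59 families lie below 0 and 32 at or below the dotted line, and in pollinated flowers 55 lie below 0 and none reaches the dotted line.

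Among transcripts of the large subunit, the L23a transcript and 2 of the 3 L30 transcripts had the lowest ratios in receptive flowers. L23a (Locus 17730), which lies at the exit of the peptide tunnel, had an RPKM of 56.1 (receptive gall), 216 (receptive seed), 74.3 (pollinated gall) and 143 (pollinated seed). Its level in receptive gall flowers was 3.84-fold lower (95% interval 3.59 to 4.11), and both gall libraries lay below both seed libraries. L30 (Locus 10341) had 30.1, 122, 46.2 and 70.2, and was 4.04-fold lower (3.72 to 4.39). A second L30 transcript, Locus 7403, had 7.47, 39.9, 12.7 and 17.0 (5.35-fold lower, 4.74 to 6.04), but it passed the RPKM minimum in receptive seed flowers only, which fixed its direction. The third, Locus 4925, had 73.6, 80.2, 106 and 119, with a receptive log2 ratio of -0.12. Summed over its 3 transcripts, L30 had a receptive log2 ratio of -1.12, above the family sums of L38 (-1.77) and L34 (-1.74). L24 (Locus 1850), which in Arabidopsis is needed for reinitiation of translation, had 221, 474, 233 and 319, and was 2.14-fold lower (2.08 to 2.21).

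The 5S RNA-binding proteins L5 and L11 were not alike within their families. L11 had an RPKM of 146, 321, 182 and 285 for Locus 13333 and of 276, 341, 278 and 437 for Locus 13646, in the order above. Of the reads of Locus 13333 in receptive seed flowers, 77% were unique. L5 (Locus 28378) had 63.3, 161, 94.3 and 126, which was 2.54-fold lower in receptive gall flowers (2.33 to 2.77). The other L5 transcript, Locus 3943, had 152, 80.9, 123 and 189, and was 1.88-fold higher in receptive gall flowers (1.76 to 2.01). In this transcript receptive seed flowers stood below the other libraries.

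L3, which lies near the peptidyl transferase centre, was represented by Locus 15701 alone. Its RPKM was 43.9 (receptive gall), 14.2 (receptive seed), 41.0 (pollinated gall) and 44.3 (pollinated seed), so that receptive seed flowers stood apart from the other libraries. Its receptive gall to seed ratio was 3.10 (2.75 to 3.49), although only 65.8% of its 298 reads in receptive seed flowers were unique. S4 (Locus 1528) of the small subunit showed the same order, with 112, 41.0, 108 and 115, and a ratio of 2.72 (2.48 to 2.99). The other 2 S4 transcripts were lower in receptive gall flowers, and the RPKM summed over all 3 was 419 there against 632 in receptive seed flowers.

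All 5 stalk transcripts were lower in receptive gall than in receptive seed flowers, and 4 of them by a factor of at least 2. Of all transcripts tested, 57.1% were lower and 23.4% by that factor. The protein P0, which anchors the stalk, had an RPKM of 75.8, 153, 99.7 and 158 in the order above for Locus 20868. The shorter P0 transcript, Locus 20614, had 155, 371, 261 and 241. P1 (Locus 1563) had 85.4, 201, 122 and 171, and the plant-specific P3 (Locus 24) had 114, 264, 168 and 214. The gall libraries lay below the seed libraries in all of them except Locus 20614, where pollinated gall lay above pollinated seed flowers. The level in receptive gall flowers was 2.31-fold lower for P3 (2.24 to 2.39) and 2.36-fold lower for P1 (2.25 to 2.47). After subtraction of the length bin medians, 1 of the 5 was lower by a factor of at least 2.

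Proteins of the small subunit were lower in receptive gall flowers for 45 of 48 transcripts and for all 24 family sums, by amounts that differed between families. Of all transcripts tested, 57.1% were lower. With TMM scaling 39 of the 48 were lower, and the S3 sum moved to the higher side. With the length bin medians subtracted, 29 were lower and 19 higher. S13 had an RPKM of 92.2, 237, 151 and 203 for Locus 9435 and of 48.4, 147, 82.3 and 104 for Locus 13962, with levels 2.57-fold (2.48 to 2.67) and 3.05-fold lower (2.90 to 3.20) in receptive gall flowers. S5 (Locus 16654), a protein at the mRNA exit, had 173, 204, 185 and 262, a ratio of less than 2. S3, which lies at the mRNA entry, had 209, 215, 197 and 326 for Locus 13405. Its other transcript, Locus 5831, had 117, 121, 140 and 55.8. The receptive libraries thus differed little in S3, and pollinated seed flowers were highest for Locus 13405 and lowest for Locus 5831.

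The symbol of S6, the protein of the small subunit that is phosphorylated downstream of the TOR kinase, was carried among the members by Locus 2463. This transcript of 4128 bp had a mean similarity of 70.5% to its protein matches, against a median of 93.8% for the 40S members. Its description names no subunit, so its place here rests on the symbol S6, and whether it is the cytosolic protein was not tested. The transcript passed the RPKM minimum in receptive gall flowers only. It had an RPKM of 24.2 (receptive gall), 15 (receptive seed), 31.8 (pollinated gall) and 23.5 (pollinated seed). It was thus higher in gall flowers at both stages, with ratios of 1.61 (1.49 to 1.75) and 1.36. No transcript described as a TOR or S6 kinase passed the level filter.

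The ubiquitin transcripts went against the others in receptive flowers, but were not uniform. The highest ratio was that of Locus 52541, an L40-type fragment of 132 bp, with an RPKM of 131 (receptive gall), 9.81 (receptive seed), 85.3 (pollinated gall) and 56.1 (pollinated seed). Its ratio of 13.3 has a wide interval (8.03 to 23.9), because it rests on 15 reads in receptive seed flowers, of which 60% were unique. Locus 52541 passed the RPKM minimum in receptive gall flowers only, which fixed its direction. Locus 30215 (114 bp) had 1402, 161, 1080 and 376, with all reads in receptive seed flowers unique, and a ratio of 8.73 (7.62 to 10.1). Locus 32970 had 404, 70.6, 291 and 173, and Locus 47872 had 1558, 525, 1422 and 705. In these 4 fragments both gall libraries lay above both seed libraries.

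The only L40-type transcript of more than 300 bp, Locus 25672 (1030 bp), had an RPKM of 366 (receptive gall), 200.1 (receptive seed), 372 (pollinated gall) and 223 (pollinated seed). Its ratio was 1.83 (1.75 to 1.91) in receptive and 1.67 in pollinated flowers, and 98.4% of its reads in receptive seed flowers were unique. Locus 41577 had a similar ratio (1.91, 1.49 to 2.48). Locus 32827, with the highest RPKM of the class in receptive seed flowers, hardly differed between libraries (969, 999.8, 1136 and 979.9). The remaining 3 were lower in receptive gall flowers, Locus 29831 by 2.64-fold, Locus 36841 by 1.90-fold and Locus 21788 by 3.51-fold, the last with no unique read in receptive seed flowers. Locus 21788 also passed the RPKM minimum in receptive seed flowers only, which fixed its direction. Among the 5 ubiquitin transcripts with at least 90% unique reads in every library, 3 were higher and 2 lower in receptive gall flowers.

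In pollinated flowers, the members were again lower in gall than in seed flowers, by less. The RPKM was lower in pollinated gall than in pollinated seed flowers for 138 of the 164 transcripts, against 60.2% of all transcripts tested. The median log2 ratio was -0.34, against -0.13 over all tested transcripts. A ratio of at least 2 was reached by 1 member that was lower in gall flowers (background 5.44%) and by 4 that were higher (background 7.05%, and 12.5% for both directions). Scaling by TMM raised the ratios of this pair by 0.19 and left a median of -0.16 for the members and of 0.06 for all tested transcripts. With the length bin medians subtracted it was -0.20. The median was -0.37 for the 60S, -0.34 for the 40S, -0.35 for the stalk and 0.67 for the ubiquitin transcripts.

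The member lower by a factor of at least 2 in pollinated gall flowers was Locus 1906, described as an L7Ae/L30e family protein, with an RPKM of 8.95 against 18.1 in seed flowers of the same stage. The 4 higher members were the L40-type fragments Locus 30215 and Locus 47872, the S3 transcript Locus 5831 and the S10-like transcript Locus 32651, which was named after its values were seen. Locus 5831 was 2.5-fold higher in pollinated gall flowers. Locus 32651 had an RPKM of 29.3 (receptive gall), 2.75 (receptive seed), 125 (pollinated gall) and 38.1 (pollinated seed), with 15 reads in receptive seed flowers. It passed the RPKM minimum in receptive gall flowers only, which fixed its direction in receptive flowers. Of the families, 55 of 60 were lower in pollinated gall flowers, none of them by a factor of at least 2, and with TMM scaling 45 were lower.

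Gall flowers had more ribosomal protein transcript after pollination than before. The RPKM was higher in pollinated than in receptive gall flowers for 138 of the 164 transcripts, against 50.1% of all transcripts tested, and for 58 of the 60 families. The median log2 ratio of the members was 0.33, a 1.25-fold higher level, against 0.00 over all tested transcripts. It was 0.41 for the 60S, 0.32 for the 40S and 0.51 for the stalk, and 0.07 for the ubiquitin transcripts. A ratio of at least 2 was reached by 3 members that were higher (background 4.01%) and by none that was lower (background 6.09%, and 10.1% for both directions). These were the S10-like Locus 32651 and 2 transcripts with few unique reads, the L40-type Locus 21788 and the L31 Locus 28375. The filter admitted Locus 21788 through receptive seed flowers only, so its rise is a description. Just below a ratio of 2 lay Locus 13554, a 60S transcript of 2140 bp with an RPKM of 29.2 in receptive and 58.2 in pollinated gall flowers, and L6 (Locus 21292) with 66.0 and 125. TMM scaling, the median ratio and the length bin medians left medians of 0.30, 0.27 and 0.27 for the members.

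In seed flowers the median of the members moved less than in gall flowers, and its sign depended on the length correction. The RPKM was lower in pollinated than in receptive seed flowers for 103 of the 164 transcripts, against 53.5% of all transcripts tested. The median log2 ratio was -0.19, against -0.07 over all tested transcripts, and it became 0.071 when the length bin medians were subtracted. A ratio of at least 2 was reached by 8 members that were higher (background 10.7%) and by 3 that were lower (background 11.5%, and 22.2% for both directions). The lower ones were the L30 Locus 7403, the S3 Locus 5831 and the L31 Locus 30688, which has no unique read in receptive seed flowers. Of the higher ones, the L3, L5 and S4 transcripts described above had an RPKM of 14.2 to 80.9 in receptive seed flowers and of 44.3 to 189 in pollinated seed flowers. The others were 3 L40-type fragments, the S10-like Locus 32651 and the L17-like Locus 9342, which was also named after its values were seen. Locus 7403 passed the RPKM minimum in receptive seed flowers only. The L3 transcript, Locus 32651 and the L40-type Locus 52541 passed it in receptive gall flowers only, so these directions are descriptions.

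A higher RPKM after pollination in gall flowers together with a lower one in seed flowers was seen in 94 of the 164 transcripts (57.3%), against 30.6% of all transcripts tested. The stage ratios of gall and seed flowers share no library, but each is taken over a receptive library whose values also chose the members. Of the members, 19 passed the RPKM minimum in receptive seed flowers only and 5 in receptive gall flowers only, so the count is a description. For the 60S, 40S and stalk the count was 77 of 127. It was 92 of 164 with TMM scaling and 88 with the median ratio, but 64 (39.0%, against 27.4%) with the length bin medians subtracted. The difference between the stage ratios has no replicate check. The ratio of gall to seed flowers was lower in receptive than in pollinated flowers for 122 members (74.4%, against 51.6%), with a median difference of -0.52 on the log2 scale against -0.04 over all tested transcripts. This count was 113 (68.9%, against 47.6%) with the median ratio and 99 (60.4%, against 49.6%) with the length bin medians subtracted.

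**Figure D4:**
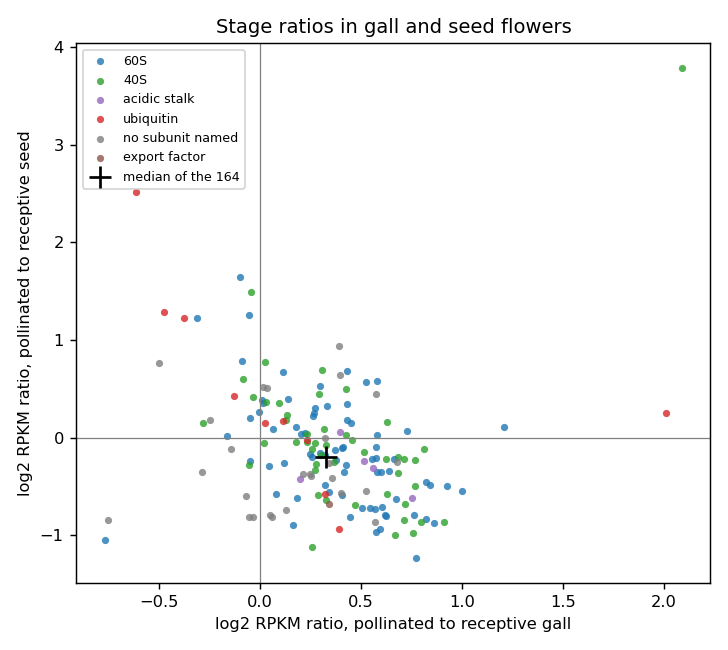
log2 RPKM ratio of pollinated to receptive flowers in gall flowers (horizontal) and in seed flowers (vertical) for the 164 ribosomal protein transcripts, coloured by class, with the median of all members as a black cross. The cross lies at 0.33 and -0.19, and 94 transcripts lie to the lower right, higher in gall and lower in seed flowers after pollination.

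Other genes of protein synthesis were compared in the same way, as lists of transcripts found by words in the descriptions. In receptive flowers, ribosomal proteins of chloroplasts and mitochondria had the median closest to the members among these lists, with a median log2 ratio of -0.81 in receptive flowers (29 of 30 lower in gall flowers, 11 of them by a factor of at least 2) and of -0.32 in pollinated flowers. From receptive to pollinated stage their median was 0.09 in gall and -0.48 in seed flowers. In gall flowers the stage median of ribosome biogenesis transcripts (0.18, 15 of 21 higher) and of the proteasome list (0.23, 32 of 38 higher) was closer to that of the members (0.33). Ribosome biogenesis transcripts had medians of -0.45 in receptive and -0.32 in pollinated flowers, and 19 of 21 were lower in receptive gall flowers, 4 of them by a factor of at least 2 and none higher by that factor. The most abundant of them, the nucleolar protein Locus 14120, had an RPKM of 69.1 and 94.6 in the receptive gall and seed libraries and of 63.3 and 113 in the pollinated ones. Of all transcripts tested, 57.1% were lower in receptive gall flowers, 23.4% by a factor of at least 2, and 17.6% were higher by that factor. From receptive to pollinated gall flowers 50.1% were higher. With the length bin medians subtracted, the receptive medians were -0.53 for ribosome biogenesis, -0.41 for the organellar proteins and -0.37 for the members.

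Without a length correction, the receptive medians of translation factors and tRNA synthetases lay closer to that of all transcripts tested (-0.20) than to that of the members. Initiation factors had a median log2 ratio of -0.19 in receptive flowers (3 of 30 lower and 5 higher by a factor of at least 2) and elongation and release factors of -0.20 (3 of 18 lower and 2 higher), the latter including a Ran release factor caught by the words used. Elongation factor 1-alpha (Locus 257), which brings aminoacyl-tRNA to the ribosome, was lower in receptive gall flowers all the same, with an RPKM of 257, 870, 637 and 606. Elongation factor 1-beta (Locus 6575) had 1010, 1899, 807 and 1522. A further elongation factor 1 transcript, Locus 718, hardly differed between receptive flowers, with 618, 643, 856 and 550. The aminoacyl-tRNA synthetases had a median of 0.04 (2 of 21 lower and 1 higher). Of all transcripts tested, 23.4% were lower and 17.6% higher by that factor. With the length bin medians subtracted, the receptive medians were 0.08 (initiation), -0.20 (elongation and release) and -0.11 (synthetases). The members then had -0.37 and all transcripts tested -0.01, so elongation and release factors lay slightly closer to the members. In pollinated flowers, by contrast, elongation and release factors had a median of -0.48 (-0.37 with the length bin medians subtracted), which was below that of the members (-0.34), while initiation factors had -0.24 and the synthetases -0.14. RACK1, a scaffold protein on the 40S subunit, was represented by Locus 2115, with 89.4, 271, 112 and 176. Its log2 ratio of -1.60 in receptive flowers was below the median of each class of members. Proteasome transcripts, a complex that breaks down ubiquitin-tagged proteins, had medians of -0.28 in receptive and -0.16 in pollinated flowers, with 6 of 38 lower and 3 higher by a factor of at least 2 in receptive gall flowers.

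**Figure D5:**
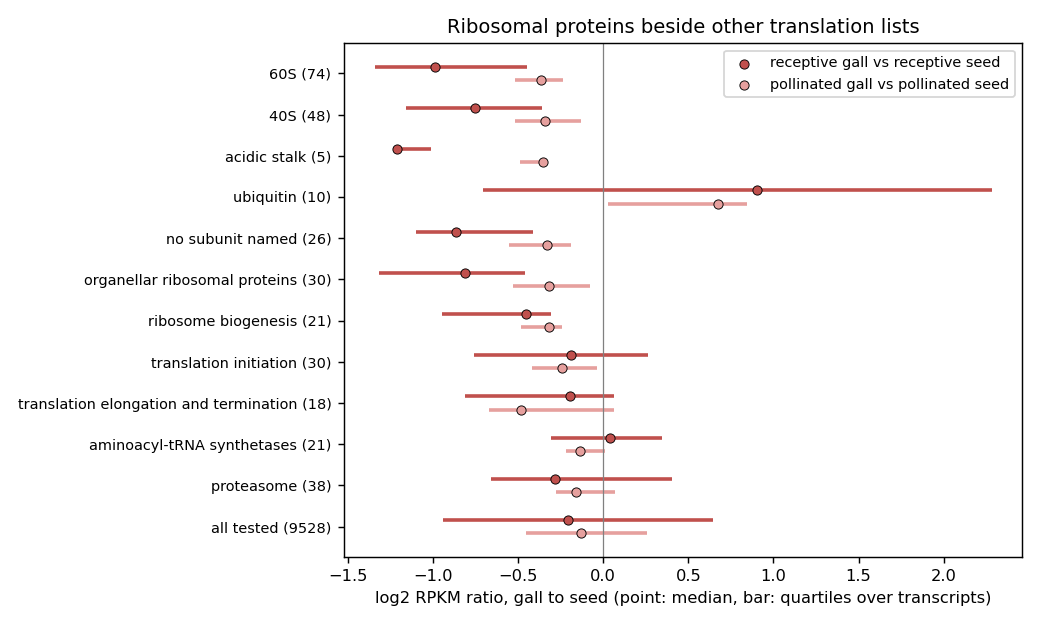
log2 RPKM ratio of gall to seed flowers in receptive (dark) and pollinated flowers (light) for 5 classes of ribosomal protein transcripts, 6 other lists and all 9528 tested transcripts (points are medians, bars run between the quartiles over transcripts, and numbers in brackets are transcripts). The 60S, 40S, stalk and organellar ribosomal medians lie between -1.21 and -0.75 in receptive flowers, and the ubiquitin class lies above 0 at both stages.

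Kal's Z-test on RPKM as a share of the summed RPKM (2-sided, Benjamini-Hochberg adjusted p under 0.05) compares 2 libraries and has no measure of the spread between samples. It called 43 of the 164 members in pollinated gall against pollinated seed flowers (15.4% of all transcripts tested were called). The receptive values chose the members, so the counts that follow are descriptions. Kal's test called 37 in pollinated against receptive gall flowers (14.2%) and 53 in pollinated against receptive seed flowers (28.2%). An additive model of flower type and stage over the 4 libraries (edgeR quasi-likelihood test, 1 residual degree of freedom, Benjamini-Hochberg adjustment) called 0 members for flower type (0.0% of all transcripts tested) and 0 for stage (0.21%). At an unadjusted p under 0.05 there were 11 members for flower type (17.9% of all transcripts tested) and 1 for stage (5.78%). DESeq2's Wald test called 5 members higher in gall flowers (7.55% of all transcripts tested were called in either direction), 1 higher in pollinated flowers (1.97%) and none lower. Without a filter on low counts the additive model called 5 and 1 members, against 10.6% and 2.99% of all transcripts tested.

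A further set of transcripts described as ribosomal proteins lay outside the members, because they had no read in either receptive library. In pollinated gall flowers 77 such transcripts had at least 10 reads each. They held 44906 reads, 0.0762% of that library, and a summed RPKM of 1133, or 4.39% of that of the members. In all, 10743 transcripts had this pattern, and 0.717% of them were described as ribosomal proteins, against 0.603% of the whole table. The highest were described as S6 (Locus 9432, RPKM 31.4), S15 (Locus 3062, 28.8) and L7 (Locus 13829, 28.5). Pollinated seed flowers had 28 reads on 10 of the 77. Where no read was counted, up to 3 reads are possible, equal at a length of 1 kb to an RPKM of 0.0588 for the receptive gall library and of 0.259 for the receptive seed library. The 490 transcripts described with a hymenopteran genus had 45219 reads in pollinated gall against 23 in pollinated seed flowers, and 24 and 2 in the receptive gall and seed libraries. Wasp transcripts whose description names no such genus are not in this count.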

How the data were processed

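RNA of 4 pooled flower samples, 1 library per flower type, was sequenced by the authors as paired reads of 100 bp. They removed the first 10 bp and reads under 75 bp (the submitters' processing notes name FastQC 0.10.0 and Trimmomatic 0.22), built 1 assembly from the reads of all flowers, reduced it to its longest sequence for every locus and counted each library against it in CLC Genomics Workbench. The deposited counts are all reads and uniquely mapped reads per transcript, without scaling. The RPKM values as deposited are all reads of a transcript over its length and the size of the library in mapped reads. Recomputed, they differed by at most 0.0005. A further 12 columns repeat other columns and were not used. Transcript sequences were not used here.

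Members and lists were chosen with earlier results of these data known. Ratios were taken from RPKM, with a ratio of at least 2 as a call. Length was taken into account by subtracting the median log2 ratio of the other tested transcripts in each of 8 length bins. Transcripts named singly had at least 100 reads in every library and were the 3 highest and 3 lowest ratios of each comparison or the 10 of highest mean RPKM, or belonged to set role groups (stalk, ubiquitin, S6, and up to 2 each of S3, S5, S13, S18, L10, L5, L11, L3, L23a and L24) whatever their reads, 44 in all. Up to 3 transcripts of each other list were allowed. Locus 32651, Locus 9342, Locus 7570, Locus 4371 and Locus 22667 and those at the level minimum or without receptive reads were named outside this rule, after their values were seen. The hymenopteran genus names were matched as whole words, a choice made after the descriptions were seen. Python 3.11.15, numpy 2.4.6, pandas 2.3.3, scipy 1.17.1, matplotlib 3.10.9, edgeR 4.0.16 and DESeq2 1.42.0 were used, and the ratios, Kal's test and the additive model were tested on simulated data. Alternatives were unique reads, TMM and median ratio scaling, 1 added to each RPKM, other level minimums, members of at least 300 bp, a ratio of 1.5, and for the model DESeq2 size factors, no filter on low counts and DESeq2's Wald test. Further alternatives, added after seeing the data, were the members without ubiquitin, those of the 60S, 40S and stalk, and those with at least 90% unique reads.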

Additional observations from a re-analysis of the deposited data

Results flagged for a closer look

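The stage ratio of the members had opposite signs in the gall and the seed flowers, with a median log2 ratio of pollinated to receptive flowers of 0.33 (gall) and -0.19 (seed). With the length bin medians subtracted the medians were 0.27 and 0.071, so the signs were then not opposite. Opposite directions, each by a factor of at least 1.5, were seen in 4 of the transcripts named singly, the directions of the median in the first 3 and the reverse in the last. L30 (Locus 7403) had 0.77 (gall) and -1.23 (seed), and L30 (Locus 10341) had 0.62 and -0.79. P0 (Locus 20614) had 0.75 and -0.62, and the L40-type fragment Locus 52541 had -0.62 and 2.52. Unlike these, the third L30 transcript (Locus 4925) was higher after pollination in both flower types, with 0.52 and 0.57. Of the 4, Locus 7403 passed the RPKM minimum in receptive seed flowers only and Locus 52541 in receptive gall flowers only. The filter thus fixed which receptive library was higher in them. The ratio of gall to seed flowers likewise had opposite signs at the 2 stages in 2 transcripts. It was -0.90 in receptive and 0.64 in pollinated flowers for Locus 13554, and 0.91 and -0.62 for L5 (Locus 3943). With 1 library per flower type, none of these differences was tested.

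Signal was also found outside the members. In pollinated gall flowers 44906 reads fell on 77 transcripts described as ribosomal proteins that had no read in the receptive libraries. They were 0.717% of the 10743 transcripts with this pattern, against 0.603% of all transcripts, and whether they are of wasp origin was not tested.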

How the results depend on the processing

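No paired analysis was possible because each flower type is 1 library, so that no replicate block could be fitted, although the additive model compares gall with seed flowers within stages. With the length bin medians subtracted, the count past a ratio of 2 in receptive gall against receptive seed flowers fell from 79 to 47 (41.1% and 33.5% of all transcripts tested) and the median log2 ratio moved from -0.90 to -0.37. The same step moved the median from -0.34 to -0.20 in pollinated gall against pollinated seed flowers, raised the count from 11 to 20 (22.2% and 19.5%) in pollinated against receptive seed flowers, and turned that median from -0.19 to 0.071. TMM scaling and the median ratio moved the gall to seed medians to -0.67 and -0.68 in receptive and to -0.16 and -0.22 in pollinated flowers. The small counts of the other pairs moved with most choices. In pollinated gall against pollinated seed flowers 5 members passed a ratio of 2, but 10 without the RPKM minimum, 3 with an RPKM above 20 in both receptive libraries, 3 among members of at least 300 bp, 3 without ubiquitin and 2 among the 60S, 40S and stalk. In pollinated against receptive gall flowers the count was 3, and 10, 1 and 1 under the same first choices, and 1 among members with at least 90% unique reads. In pollinated against receptive seed flowers the count was 11, and 20, 7, 7 and 7. A ratio of 1.5 gave 38, 40 and 55 in these pairs, and Kal's Z-test 43, 37 and 53. The additive model called 0 members, but without a filter on low counts it called 5 for flower type and 1 for stage (10.6% and 2.99% of all transcripts tested), as did DESeq2's Wald test (5 and 1, against 7.55% and 1.97%). The fewer members of the restricted sets lower their counts by construction, and for the other shifts the cause was not tested. Of the 176 ratios of transcripts named singly, 42 were past a ratio of 2, and these kept their sign under all 205 alternative values, but 39 of those values were under a ratio of 2, 17 of them with the length bin medians subtracted.

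Depth limits the members with few reads in receptive seed flowers, the smallest library, and 15 of 164 members had under 90% unique reads in a library.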
